A study of Mus musculus with 2 samples.

Results

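The genes described here are 9 that define megakaryocytes and platelets: Itga2b, Itgb3, Gp1ba, Gp9, Gp6, Pf4, Ppbp, Vwf and Thbs1. They are 9 of the 21670 protein-coding genes considered, those of the autosomes and the X chromosome. Their chromatin was read in mouse granulocyte monocyte progenitors (GMP), bone marrow cells committed to neutrophils and monocytes and not to platelets. The method was ATAC-seq, in which the Tn5 transposase cuts accessible DNA, so that open chromatin collects reads. Members of the loci were the regions of the conservative series-level list whose summit, the position of the strongest signal, lay in the gene body or within 30 kb of it, after rows of the list that overlapped by 1 bp had been merged. This gave 57 of 75148 regions, in 8 separate stretches, since the windows of Pf4 and Ppbp overlap.

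The study holds 1 group of 2 biological replicates, each made from 50000 GMP. The mice were C57BL/6J males, adult at 5 to 6 weeks of age, and the labels name no treatment or altered gene. The samples have separate biosample labels but share a donor label, so their spread may be smaller than that between unrelated mice. The labels do not describe the sort and name sequencing instruments for replicate 1 only. With 1 group there is no contrast between conditions, and the values below describe the loci beside all genes or all regions, with no test.

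Megakaryocytes are giant bone marrow cells that shed platelets into the blood. Platelets stick to damaged vessels through the glycoprotein Ib-IX complex, which holds von Willebrand factor, and through glycoprotein VI, which holds collagen, and they bind each other through the integrin alphaIIb-beta3, the fibrinogen receptor. Their granules release chemokines and adhesive proteins. Transcription of these genes in megakaryocytes depends on GATA1, FLI1 and other ETS factors, RUNX1 and NF-E2, whereas PU.1 (an ETS factor) and C/EBP factors lead the granulocyte and monocyte programme.

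The sequences that the results turn on are shown first, to let a reader see which of these factors' recognition letters lie where the chromatin was open. They come from the RefSeq GRCm38.p6 genome, whose chromosomes are those of mm10, and read 5′ to 3′ on the strand of the gene. Each is the 201 bases centred on a summit (position 101), named by its distance from the principal transcription start. Capitals mark matches to 7 motifs, each searched on both strands. The motif of GATA factors was spelled AGATAA in its first form, and in its other forms the last base was G or the first base was T, or both. For RUNX factors the forms were TGTGGT and, with a changed middle base, TGCGGT. For the ETS family they were CCGGAA and, with a changed second base, CAGGAA. PU.1 was searched separately as GAGGAAGT and the C/EBP family, written CEBP here, as TTGCNNAA. The AP-1 motif, whose core is also held by NF-E2 sites, was TGAGTCA. The CTCF consensus is given by name. No form holds another, though neighbouring matches can overlap. The Itga2b promoter region (chr11:102470103-102470303, minus strand) has a GATA match across its summit and a PU.1 match. The strongest region of that gene (chr11:102467131-102467331, minus strand, intron 4) has none of the 7. At Itgb3, the strongest region (chr11:104590209-104590409, plus strand) has a CTCF match, and a weaker one in intron 1 (chr11:104611708-104611908, plus strand) has ETS, RUNX and GATA matches together. The region with the highest fold of all 57 (chr5:90742153-90742353, plus strand) has GATA, PU.1 and RUNX matches.
Itga2b -320 bp: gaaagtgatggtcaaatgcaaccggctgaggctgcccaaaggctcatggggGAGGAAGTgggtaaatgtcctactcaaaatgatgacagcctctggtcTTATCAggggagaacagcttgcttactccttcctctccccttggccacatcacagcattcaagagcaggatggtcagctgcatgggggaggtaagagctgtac
Itga2b +2652 bp: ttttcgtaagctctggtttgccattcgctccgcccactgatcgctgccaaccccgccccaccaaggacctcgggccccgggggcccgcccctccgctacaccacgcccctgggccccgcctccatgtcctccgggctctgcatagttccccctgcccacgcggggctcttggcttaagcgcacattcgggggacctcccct
Itgb3 -17691 bp: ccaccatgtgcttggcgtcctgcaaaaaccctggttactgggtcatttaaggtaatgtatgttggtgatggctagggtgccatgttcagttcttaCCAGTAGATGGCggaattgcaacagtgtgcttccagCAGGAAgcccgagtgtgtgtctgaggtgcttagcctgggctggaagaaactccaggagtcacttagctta
Itgb3 +3808 bp: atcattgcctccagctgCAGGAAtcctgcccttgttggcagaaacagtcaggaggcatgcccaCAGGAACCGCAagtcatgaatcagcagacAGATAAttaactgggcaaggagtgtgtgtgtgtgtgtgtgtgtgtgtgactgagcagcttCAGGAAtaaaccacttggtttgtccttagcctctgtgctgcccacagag
Ppbp -26265 bp: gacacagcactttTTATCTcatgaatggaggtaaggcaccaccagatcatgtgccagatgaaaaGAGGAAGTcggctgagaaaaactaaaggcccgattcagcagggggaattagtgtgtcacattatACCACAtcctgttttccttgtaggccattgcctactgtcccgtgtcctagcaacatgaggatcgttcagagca

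Promoters are shown as the 200 bases before the principal start, for 1 gene that was open there and for the 5 that were not. That of Pf4 (chr5:90772235-90772434, plus strand) lay within an open region. Those of Gp1ba (chr11:70638922-70639121, plus strand), Gp6 (chr7:4397745-4397944, minus strand), Vwf (chr6:125552748-125552947, plus strand), Gp9 (chr6:87777872-87778071, plus strand) and Ppbp (chr5:90768318-90768517, plus strand) were in no region of the series-level list. The first 3 of these carry at least 1 GATA match, while the Gp9 promoter has a RUNX match only and the Ppbp promoter an ETS match only. Of all promoters 26.7% hold a GATA match, counted from 250 bp before to 50 bp after the start.
Pf4 promoter: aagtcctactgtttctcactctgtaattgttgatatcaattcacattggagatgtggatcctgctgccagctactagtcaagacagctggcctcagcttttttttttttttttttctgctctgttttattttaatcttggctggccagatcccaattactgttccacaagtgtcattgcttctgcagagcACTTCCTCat
Gp1ba promoter: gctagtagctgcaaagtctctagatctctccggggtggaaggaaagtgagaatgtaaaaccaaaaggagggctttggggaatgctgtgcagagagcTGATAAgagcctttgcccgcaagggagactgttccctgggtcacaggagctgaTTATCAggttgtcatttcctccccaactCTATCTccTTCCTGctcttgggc
Gp6 promoter: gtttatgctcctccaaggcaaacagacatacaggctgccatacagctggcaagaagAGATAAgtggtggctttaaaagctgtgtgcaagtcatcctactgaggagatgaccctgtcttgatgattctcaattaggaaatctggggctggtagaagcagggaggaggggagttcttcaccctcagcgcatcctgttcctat
Vwf promoter: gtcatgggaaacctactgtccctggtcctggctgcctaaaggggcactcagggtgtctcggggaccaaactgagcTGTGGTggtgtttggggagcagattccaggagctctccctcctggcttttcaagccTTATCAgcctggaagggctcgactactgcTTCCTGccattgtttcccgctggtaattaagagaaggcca
Gp9 promoter: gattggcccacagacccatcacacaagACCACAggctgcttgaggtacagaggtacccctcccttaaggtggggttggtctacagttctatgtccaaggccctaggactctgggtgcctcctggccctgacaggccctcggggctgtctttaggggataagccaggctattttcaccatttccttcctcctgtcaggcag
Ppbp promoter: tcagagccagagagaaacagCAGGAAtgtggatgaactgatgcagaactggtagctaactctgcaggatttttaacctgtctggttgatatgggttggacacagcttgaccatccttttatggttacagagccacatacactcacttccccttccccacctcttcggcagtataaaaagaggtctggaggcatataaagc

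Open chromatin was present at all 9 loci, from 1 region at Gp6 and 2 at Thbs1 to 15 at Itgb3. Itga2b had 9, Vwf 11, Ppbp 7, and Gp1ba, Gp9 and Pf4 6 each, of which 6 were shared between Pf4 and Ppbp. The median was 6 regions per window, against 5 over all genes, and 84.2% of all genes had at least 1. Per 100 kb of window the median was 9.72 regions, against 5.40 over all genes. By this density Itgb3 (12.25), Itga2b (11.71) and Ppbp (11.37) stood above 85% of genes, Vwf (5.50) near the middle, and Thbs1 (2.66) and Gp6 (1.07) at percentiles 29.6 and 18.6.

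**Figure D1:**
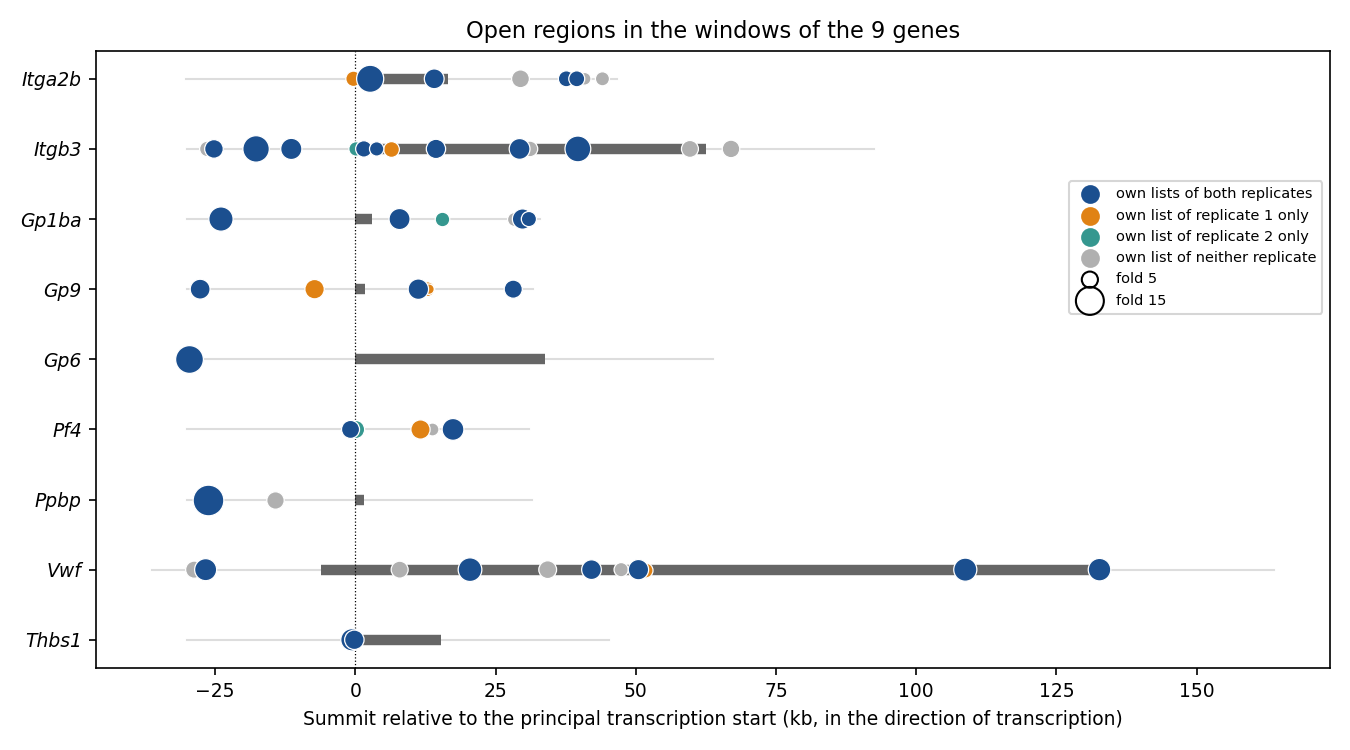
Summits of the 57 regions along the window of each gene, in kb from its principal transcription start in the direction of transcription. Thick bars are gene bodies, thin lines the 30 kb to each side, point area follows the fold in the series-level list and colour gives the replicates whose own list holds the region. A region in 2 windows is drawn at the nearer gene. Gp6 has 1 point, far before its start, and the 2 points of Thbs1 lie at its start.

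Most of the regions were away from the members' own starts. Of the 57, 20 lay inside a member, 23 outside and distal to every promoter, 8 at the promoter of another gene, and 6 at the promoter of a member. A promoter here is the 1000 bp to each side of the start of a protein-coding transcript. Over the whole list 20.7% of regions lay at a promoter of some gene.

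Folds at the loci were mostly on the lower side of the list. The fold is the enrichment that the authors gave each region, and it is compared only within a list. The median over the 57 was 6.24 (range 2.07 to 18.09), against 8.09 over all regions, and 15 of 57 reached that overall median. Median width was 434 bp, against 473 bp over all regions. The 8 regions with a fold above 10 were spread over Ppbp, Gp6, Itga2b, Itgb3 (2), Gp1ba and Vwf (2).

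**Figure D2:**
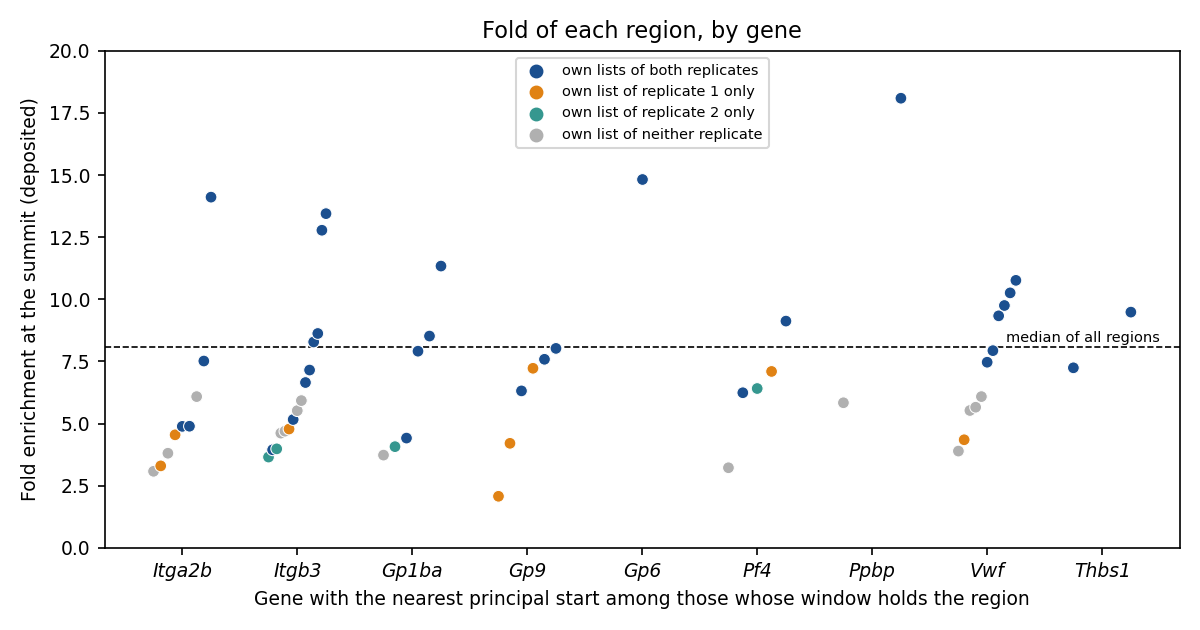
Deposited fold of each of the 57 regions in the series-level list, by gene, coloured by the replicates whose own list holds the region. The dashed line is the median of all regions, 8.09. The 8 points above 10 belong to 6 genes and are all in the lists of both replicates, while the 14 points in neither list stop at 6.08.

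The replicates shared a little over the middle of this set. The own list of replicate 1 held 43 regions at the loci and that of replicate 2 held 38. Of the 57, 31 overlapped a region of both lists (54.4%, exact 95% binomial interval 40.7% to 67.6%, which treats regions as independent), against 66.1% of all regions. Among all regions under the overall median fold, where most of the 57 lie, the share was 41.9%. A further 8 were in the list of replicate 1 only, 4 in that of replicate 2 only, and 14 (24.6%) in neither, against 14.7% of all regions. Those 14 had a median fold of 5.11 and at most 6.08, and all 14 were in the looser deposited list of each replicate. The 31 regions in both lists had a median fold of 8.02. All 8 regions with a fold above 10 were in both lists, as were 97.1% of all such regions. The median distance between the series-level summit and that of the replicate was 5 bp in each, and the largest was 299 bp in replicate 1 and 494 bp in replicate 2.

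At promoters, 4 of the 9 genes were open in the series-level list: Itga2b, Itgb3, Pf4 and Thbs1. Among all genes 61.4% were. In the own list of replicate 1 the open ones were Itga2b, Pf4 and Thbs1 (3 of 9, against 60.0% of all genes), and in that of replicate 2 Itgb3, Pf4 and Thbs1 (3 of 9, against 56.6%). Pf4 and Thbs1 were thus the only members open at the promoter in both replicates. The other 5, Gp1ba, Gp9, Gp6, Ppbp and Vwf, had no promoter region in any of these 3 lists.

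Most promoters of the 9 genes were poor in CpG, the dinucleotide that marks broadly used promoters. From 250 bp before to 50 bp after the principal start, the observed over expected CpG ratio had a median of 0.169, against 0.561 over all genes. Gp6 (0.056), Gp9 (0.122), Gp1ba (0.154), Vwf (0.168), Ppbp (0.169) and Pf4 (0.217) were among the 5418 genes with the lowest ratios, at or under 0.219. Of these 6 only Pf4 was open, and of all 5418 genes 17.8% were. Itga2b (0.266), Thbs1 (0.594) and Itgb3 (0.610) were above 0.219 and all 3 were open, as were 75.9% of all genes above it. Thbs1 and Itgb3 were also above the median of all genes.

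The fibrinogen receptor genes had the highest densities of open regions per 100 kb of the 9 loci, with most regions inside or beyond the genes and low folds at the promoters. By number, Vwf with its long window (11) lay between Itgb3 (15) and Itga2b (9). Itga2b encodes the alphaIIb subunit, which gives the integrin its megakaryocyte restriction (chr11:102453297-102470122, minus strand). Its promoter region had its summit at -320 bp and a fold of 4.55, at percentile 8.19 of the list. The own list of replicate 1 gave it 5.28, and the own list of replicate 2 did not hold it. In the ranked list of replicate 2 a row lay there with a fold of 3.53 and a score of 476. This was under 540, the score threshold for the own lists of the replicates and the conservative series-level list. The score rests on the irreproducible discovery rate (IDR), which is low where the ranks of a peak match between repeats. The summit lay 81 bp before the start of a noncoding Itga2b transcript that begins upstream of the principal one.

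Inside Itga2b the signal was stronger than at the start. The region at 2.65 kb, in intron 4 (chr11:102466896-102467626), had a fold of 14.1, with 14.6 in the list of replicate 1 and 11.4 in that of replicate 2, and stood at percentile 92.52. Its summit lay 32 bp from the annotated start of a noncoding transcript of Itga2b. A region in intron 28, at 14.1 kb (chr11:102455530-102456506), had a fold of 7.52, with 8.80 and 6.10 in the replicates. Both replicates thus held both intronic regions by overlap, although only replicate 1 held the promoter region. In intron 28 the summit of replicate 2 lay 494 bp from the series-level summit, and that of replicate 1 lay 5 bp from it.

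Beyond the 3′ end of Itga2b, 6 more regions lay in and around Fam171a2 and Grn (the progranulin gene), with folds from 3.08 to 6.08. Of these, 2 were at the Grn promoter (folds 3.30 and 4.89), 1 was in a Grn intron (4.89), 2 lay between genes beyond it (3.08 and 3.81), and 3 of the 6 were in neither replicate's own list. The strongest of them, in an intron of Fam171a2 at 29.5 kb (fold 6.08, in neither list), carries GATA, RUNX and PU.1 matches within 100 bp of its summit.

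Itgb3 encodes the beta3 subunit, which also pairs with another alpha subunit on other cells (chr11:104608000-104670476, plus strand). Its promoter region was centred in coding exon 1, at 133 bp, with a fold of 3.98 (percentile 4.07). Replicate 2 held it with 4.09, while replicate 1 had a row there with 4.19 in its ranked list, at a score of 464 and so under the threshold. In intron 1, which follows, lay 5 regions between 1.52 and 14.4 kb, with folds from 3.65 to 7.15, 3 of them in both replicates. In order from the start the folds were 5.16 (both lists), 3.65 (replicate 2 only), 3.94 (both), 4.78 (replicate 1 only) and 7.15 (both). RUNX matches were found in 4 of the 5 (27.9% of all regions hold one), GATA matches in 3 (21.1% of all regions) and ETS matches in 3 (38.3%), counts that rest on 5 regions.

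The strong regions of Itgb3 lay further away. At 39.7 kb, in intron 10 (chr11:104647162-104648000), the fold was 12.8, with 12.7 and 11.5 in replicates 1 and 2. At 17.7 kb before the start, in an intron of Myl4, a myosin light chain gene (chr11:104590003-104590467), it was 13.4, with 14.1 and 11.4. The CTCF match of that region lies at its summit. Intron 5 held a region with a fold of 8.28 (8.80 and 6.95), its summit 100 bp from the start of a noncoding Itgb3 transcript, and an intergenic region 11.4 kb before the start, had 8.62 (9.28 and 6.39). Myl4 held 2 further regions, 25.2 kb before the start (6.65, with 7.45 and 5.33) and 26.4 kb before it (4.62, in neither list). The other regions in neither list were in intron 6 (4.69), in the untranslated part of exon 15 (5.52) and between genes at 67.0 kb (5.92). In all, 8 of the 15 regions were in both replicates and 4 in neither. RUNX matches lay at 10 of the 15 Itgb3 regions, a locus singled out after its values were seen. At the other loci they were at 2 of 6 (Gp9), 2 of 7 (Ppbp), 1 of 6 (Pf4), 1 of 9 (Itga2b) and 1 of 11 (Vwf). Regions shared by Pf4 and Ppbp count for both genes here. None was found at Gp1ba (6 regions), Thbs1 (2) or Gp6 (1). Over all 57 regions the share with a RUNX match was 28.1%, against 27.9% of all regions.

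The genes of the von Willebrand factor receptor were not open at their starts. Gp1ba encodes the subunit that binds von Willebrand factor (chr11:70639122-70642036, plus strand). It had 6 regions in its window, and for none of them was Gp1ba the gene with the nearest coding start. At the promoters of neighbours lay 5 of the 6. The strongest, in an intron of Chrne within the promoter window of 4930544D05Rik, had a fold of 11.3 (12.1 and 9.39 in replicates 1 and 2). One shared by Slc25a11 and Rnf167 had 8.52 (9.38 and 6.88), and Pfn1, which encodes the actin-binding protein profilin, had 4.07 with replicate 2 alone holding it (3.86). The promoter of Spag7 held 2 regions, with folds of 7.91 (8.12 and 6.74) and 4.42 (4.87 and 4.06), the second of them in an untranslated exon of Camta2. A further region, in an intron of Spag7, had 3.73 and was in neither list. At the Gp1ba start itself, 3 bp before it, the looser series-level list had a row with a fold of 3.47, which scored 178 in the ranked list between replicates. The promoter of Gp1ba, shown above, has 3 GATA matches and 1 ETS match in 200 bases.

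Gp9 encodes a small subunit of the same complex (chr6:87778072-87779768, plus strand). It had 6 regions, none within 1000 bp of its start. The nearest, 7.26 kb before it (chr6:87770667-87770961), had a fold of 7.22 and was in the list of replicate 1 only (6.80). The strongest, at 11.2 kb in an untranslated exon shared by Rab43 and Gm45140, had 8.02, with 7.27 and 7.61 in replicates 1 and 2. In an intron of Efcc1, 27.7 kb before the start, a region had 7.59 (9.08 and 5.41), and in an exon of the noncoding gene 9930120I10Rik, at 28.2 kb, another had 6.31 (6.87 and 5.28). A pair of weak regions beside the strongest one, with folds of 4.21 and 2.07, overlapped a single region of replicate 1, so that replicate 1 counts for both. Under the threshold, the ranked list between replicates had rows 27 bp before the Gp9 start (fold 3.81, score 178) and 729 bp after it (fold 4.81, score 396). The second was nonetheless in the other series-level thresholded list, which is not bound to these scores, so Gp9 counts as open there.

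Gp6, the collagen receptor gene (chr7:4363965-4397744, minus strand), was the emptiest locus apart from 1 strong region. It lay 29.7 kb before the start, just inside the window, in an untranslated exon of Rdh13, a retinol dehydrogenase gene (chr7:4427151-4427853). Its fold was 14.8, with 16.0 and 11.8 in replicates 1 and 2, at percentile 94.53. None of the 7 motifs was found within 100 bp of its summit. No list of either replicate or of the series had a row within 2500 bp of the Gp6 start. The nearest region outside the window was 34.02 kb from the gene, with a fold of 5.80.

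Pf4 and Ppbp, the platelet chemokine genes, lie close together in a cluster of CXC chemokine genes. Pf4 (platelet factor 4, chr5:90772435-90773383, plus strand) was open at its promoter in both replicates, but at the start itself in replicate 2 only. At 16 bp the fold was 6.41 (chr5:90771818-90772692). Replicate 2 held it with 5.85 and a further summit 358 bp before the start (4.91), while the row of replicate 1 there (fold 6.57) had a score of 503, under the threshold. At 850 bp before the start a region had 6.24, with 6.43 and 5.42 in replicates 1 and 2 (chr5:90771406-90771774). PU.1, ETS and GATA matches lie within 100 bp of the summit at the start, and an AP-1 match within 100 bp of the other.

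Ppbp (pro-platelet basic protein, chr5:90768518-90770063, plus strand) had no row within 2500 bp of its start in any list. The strongest region of all 9 loci was in its window, between genes, 26.3 kb before its start (chr5:90741914-90742552). The fold was 18.09, at percentile 99.03, with 17.2 and 16.1 in replicates 1 and 2. Cxcl5, another chemokine gene, has the nearest coding start. This region is 30.18 kb from Pf4, just outside that gene's window, which is why it counts for Ppbp alone. Beyond Pf4 lay a region at 17.4 kb with a fold of 9.12 (8.66 and 8.69), also nearest to another chemokine gene, Cxcl3, whose own promoter had 3.22 in neither replicate's list. At 11.5 kb from the Pf4 start, a region had 7.10 and was held by replicate 1 only (7.21). The remaining one, 14.4 kb before the Ppbp start, had 5.84 and was in neither list.

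Vwf, which encodes von Willebrand factor (chr6:125546774-125686679, plus strand), was open along the gene body but not at its start. The principal start is in no region of any list, with no row within 2500 bp. A coding transcript starts 6174 bp further upstream, and 1845 bp from that start the other series-level thresholded list had a region with a fold of 6.79. Replicate 1 held it in its own list (7.94), whereas in the ranked list of replicate 2 it had 4.55 and a score of 167.

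Within Vwf lay 9 of its 11 regions, 5 of them in both replicates. At 20.5 kb, in intron 6, the fold was 10.8 (11.4 and 9.25 in replicates 1 and 2), with an AP-1 match. At 109 kb, in intron 38, it was 10.3 (11.9 and 7.06), with CTCF, ETS and GATA matches (chr6:125661404-125661895). At 133 kb, in intron 50, it was 9.75 (9.86 and 8.26), its summit 108 bp from the start of a noncoding Vwf transcript. The other 2 in both lists were in coding exon 14, at 50.5 kb (7.93, with 8.72 and 6.92), and in intron 10, at 42.1 kb (7.47, with 10.3 and 5.19). Replicate 1 alone held a region in intron 15 (4.35, with 5.17). Neither list held those in intron 3 (5.53), intron 12 (3.89) and, at 34.3 kb, intron 6 (6.08). Before the gene, 26.7 kb from the principal start, a region had 9.33 (10.7 and 7.10), and 28.7 kb from it one had 5.66, in neither list. Vascular cells also make von Willebrand factor. Of 6 endothelial marker genes, 3 were open at the promoter in the series-level list, against 61.4% of all genes. These were Cdh5, Esam and Pecam1, the last also a leukocyte gene, while Emcn, Tek and Kdr were closed there. Kdr was open in the list of replicate 2 (5.12). Whether other cells contributed to the regions at Vwf was not tested.

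Thbs1, which encodes thrombospondin 1 (chr2:118111876-118127133, plus strand), had both of its regions at the promoter and the strongest promoter of the 9. At 608 bp before the start (chr2:118111079-118111476) the fold was 9.48, with 10.1 and 7.77 in replicates 1 and 2, and an AP-1 match lay within 100 bp of the summit. At 170 bp before it (chr2:118111540-118112079) the fold was 7.24, with 7.87 and 5.90. Thbs1 is also made outside the megakaryocyte lineage, monocytes included. The gene body held no region, and the next one lay 31.16 kb from the gene, just outside the window, with a fold of 5.64.

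Matches to the GATA, RUNX, ETS, AP-1 and CTCF motifs were about as frequent at the loci as over the whole list. The share was higher for PU.1 and lower for CEBP. Within 100 bp of the summit, GATA matched 12 of 57 regions (21.1%, against 21.1% of all regions), RUNX 16 (28.1% against 27.9%), ETS 20 (35.1% against 38.3%), AP-1 4 (7.02% against 7.30%) and CTCF 3 (5.26% against 5.41%). PU.1 matched 8 (14.0% against 10.1%) and CEBP 4 (7.02% against 14.9%). None of the 7 was found at 19 regions (33.3% against 23.4%). GATA together with ETS or PU.1 was found at 8 regions (14.0% against 9.60%), and with RUNX as well at 4 (7.02% against 2.87%), combinations chosen after the values were seen. Each share rests on few regions, and 1 region more or less is 1 of 57. Over all promoters, from 250 bp before to 50 bp after the principal start, 26.7% hold a GATA match, 42.2% an ETS match and 21.5% a RUNX match. Of the 9 promoters 4 hold a GATA match (Gp1ba, Gp6, Pf4 and Vwf), 7 an ETS match and 2 a RUNX match. A match is a description of the letters and not of binding.

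**Figure D3:**
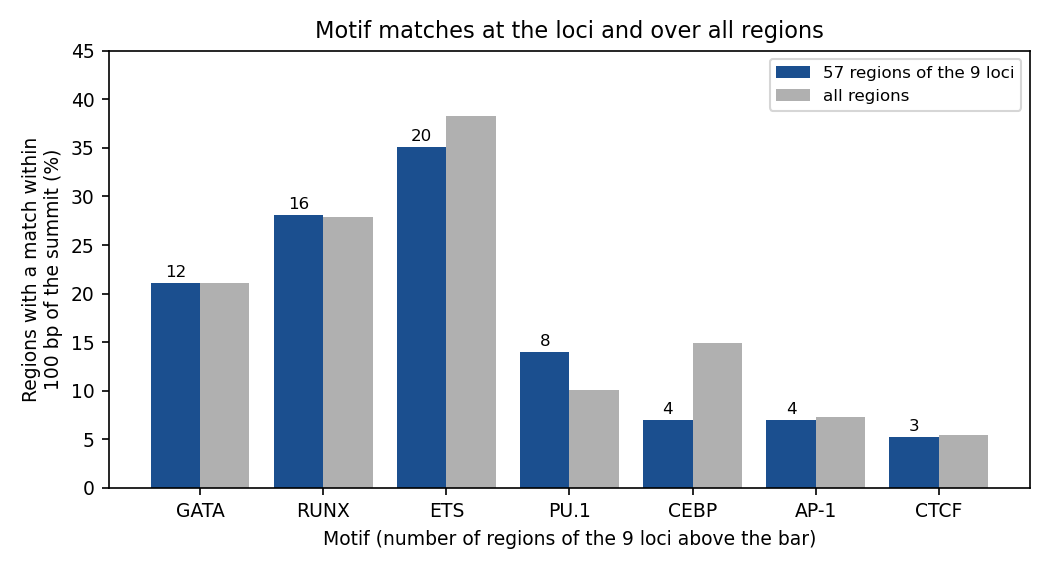
Share of regions with a match to each of 7 motifs within 100 bp of the summit, for the 57 regions of the 9 loci (number with a match above the bar) and for all regions of the list. GATA stands at 21.1% in both, and CEBP is lower at the loci, with 4 regions.

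Of other genes of megakaryocytes and platelets, a larger share was open than of the 9, a difference that was not tested. Of 64 listed genes, none of them among the 9, 49 (76.6%) had an open promoter, against 61.4% of all genes. In the list of replicate 1 it was 44 of 64, against 60.0% of all genes, and in that of replicate 2 it was 41, against 56.6%. By role the shares ran from 6 of 12 to 10 of 11. Receptors and adhesion molecules, the role most like that of the members, were open in 6 of 12, led by Itgb1 (an integrin subunit of many cells, fold 11.1) and Jam3 (a junction adhesion molecule, 10.04). Gp1bb and Gp5, which complete the von Willebrand factor receptor, were not open (named after their values were seen). Granule and secreted proteins were open in 10 of 15 (66.7%, near the 61.4% of all genes), led by Vps33b (granule formation, 15.3) and Rab27b (granule release, 12.9).

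The other roles had higher shares. Cytoskeletal genes were open in 9 of 10, led by Was (actin assembly, 17.1) and Plek (pleckstrin, 8.61), and signalling genes in 14 of 16, led by F2r (a thrombin receptor, 15.8) and P2ry1 (an ADP receptor, 11.2). Transcription factors were open in 10 of 11, led by Mef2c (12.7) and Gata1 (the regulator of red cells and megakaryocytes, 9.99). Gata1 was open in both replicates, at 9.79 and 7.93, and Fli1 was the factor without a promoter region at the starts used. The median CpG ratio of the 64 promoters was 0.364, above the 0.169 of the 9.

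**Figure D4:**
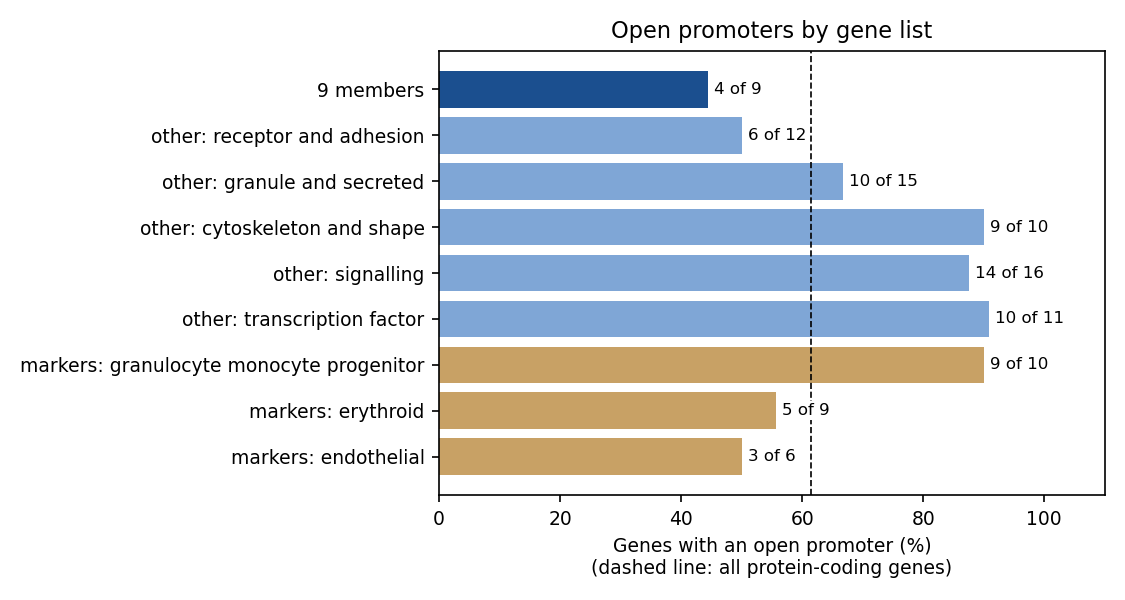
Share of genes with an open promoter in the series-level list, for the 9 genes, 5 role lists of other megakaryocyte and platelet genes and 3 lists of cell type markers. Counts stand beside the bars and the dashed line is the 61.4% of all genes. The 9 genes (4 of 9) are below the line and the lists for cytoskeleton, signalling and transcription factors above it.

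Over the whole series, the list of replicate 1 held 65423 regions and that of replicate 2 held 53686. The files give no read counts, so depth is unknown and a missing region is one that did not pass a list's threshold. In the series-level list 61.4% of all genes were open at the promoter. Of 10 GMP marker genes 9 were, all 9 in both replicates, including Mpo, Elane and Cebpa. Of 9 erythroid markers 5 were open (55.6%, near the share of all genes), among them Epor and Tfrc, while Klf1, Hba-a1, Slc4a1 and Rhag were not. Of 13 megakaryocyte markers, the 9 genes among them, 5 were open (38.5%), and Tubb1 (platelet tubulin, fold 4.92) was in neither replicate's list. The median CpG ratio was 0.26 for the GMP, 0.174 for the erythroid and 0.169 for the megakaryocyte markers, against 0.561 over all genes. Of all genes with a ratio at or under 0.219, 17.8% were open. Open chromatin in a few megakaryocytes among the cells and open chromatin in GMP themselves cannot be told apart in bulk samples. The part of such cells in these regions was not tested.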

How the data were processed

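The 2 ATAC-seq samples of GMP, replicates of 1 group, were used as peak lists. The deposited columns were each row's interval, its summit, its fold enrichment (a ratio computed by the authors, its background not stated) and, in ranked lists, an IDR score that the authors computed. Coordinates of the deposited lists are in mm10, per the submitters' file list. Aligner, peak caller and Tn5 shift: not given in the sources used here. In the conservative series-level list, rows have a score of at least 540. In the ranked list between replicates, 8 columns of single replicates were not used.

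Rows overlapping by 1 bp were merged into regions that keep the summit and fold of the row with the highest fold. A region counted for a replicate where it overlapped that replicate's own IDR-thresholded list by 1 bp. Genes and starts came from GENCODE M21 on GRCm38.p6, and the principal start is that of the transcript with the APPRIS principal tag. A gene was open where a summit lay within 1000 bp of the start of any of its protein-coding transcripts. Motifs were searched on both strands within 100 bp of summits. Code ran in python 3.11.15 with pandas 2.3.3, numpy 2.4.6, scipy 1.17.1, matplotlib 3.10.9 and samtools 1.23.1, and merging, counting and motif search were tested on simulated data.

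No test was made, since 1 group of 2 samples allows none. All 9 members were named with the regions in their windows, neighbours where a region lay in them or at their promoter, and of the other megakaryocyte and platelet genes the 2 open promoters with the highest fold in each role. The members and lists were chosen with earlier results of these data known. Alternatives were other lists, windows, starts and overlaps. Values of some single genes of the lists are not reported here.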

Additional observations from a re-analysis of the deposited data

How the results depend on the processing

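The number of regions at the 9 loci was 57, and 118 in the looser series-level list, 15 among regions at or above the median fold of the list, and 30 and 123 with 10 kb and 100 kb to each side. Members with an open promoter numbered 4, and 1 among regions at or above the median fold. In the other series-level thresholded list they numbered 5, with Gp9 added, against 61.4% of all genes. In the looser series-level list they numbered 6, with Gp1ba and Gp9 added, against 69.2% of all genes. The lower share of open promoters among the 9 thus depends on the list used. Regions at the promoter of another gene numbered 8, and 16 in the looser list, 2 at or above the median fold, 1 and 24 with 10 kb and 100 kb, 5 and 13 with promoter windows of 500 and 2500 bp, and 14 with the starts of all transcripts of protein-coding genes, a choice added after the data were seen. With those starts Vwf brought the open members to 5, from a noncoding transcript that starts 108 bp from the 9.75-fold region near its 3′ end, and Clec1b and Selp joined the other genes. Regions with a GATA match numbered 12 of 57, and 28 of 118 in the looser list and 2 of 15 at or above the median fold. They were 7 of 30 and 21 of 123 with 10 kb and 100 kb, and 5 and 19 with motif windows of 50 and 150 bp. The median fold was 6.24, and 4.49 in the looser list and 10.3 at or above the median fold. By its construction, the cut at the median fold of the list can only raise this median and lower the counts. In the own list of a single replicate it was 6.38 without replicate 1 and 8.12 without replicate 2. Medians of different lists are not on a common scale, and the medians of all regions of those other lists are not given here. The share of regions in both lists was 54.4%, and 96.5% with the looser list of each replicate. It has no value without a replicate, since it needs both. Other megakaryocyte and platelet genes with an open promoter numbered 49, and 22 at or above the median fold.

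Among all alternatives run, 35 moved no count by over 1.5 times and no share beyond its interval. These also moved no median fold by more than the SD between the replicate lists (1.23). No paired analysis was possible because the replicates belong to 1 group. Without read counts, there is no limit of detection for the promoters in no list.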
